A study of Homo sapiens with 15 samples.

Results

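Gene expression was compared between CD90+/CD133+ and CD90+/CD133- cells, which had been separated by sorting on CD133 from PEO1, an established cell line of human ovarian cancer. The arrays were chosen by their labels, and they were 10 of the 15 in the series, 5 of each fraction, with the same replicate numbers 1 to 5 in both. All cells were grown in RPMI-1640 with FBS, stained for CD90 and CD133 and with a Sytox blue viability dye, and none had been treated. The other 5 arrays hold CD90-/CD133- cells and are given only beside single values. Nothing in the labels says what separates one replicate from another, apart from codes shared within a number, so the p-values measure the spread between these pairs. In sorted bulk cells, more cells that express a gene and more RNA in each cell cannot be told apart.

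CD133, the product of PROM1, is a pentaspan membrane protein that sits in plasma membrane protrusions, and it is used with CD90 (THY1, a GPI-anchored surface glycoprotein) to enrich stem-like cells from tumors. In ovarian cancer CD133 has been used together with aldehyde dehydrogenase activity for that purpose. Both surface proteins mark cells in a mixture and say little by themselves of what the cells transcribe.

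PROM1 followed the sort on every array. Its intensity was 23.8, 21.5, 68.2, 24.6 and 156.0 on the CD90+/CD133- arrays of replicates 1 to 5, and 429.3, 834.3, 1093, 796.0 and 1652 on the CD90+/CD133+ arrays. The fractions did not overlap, and the geometric mean was 20.8-fold higher in CD90+/CD133+ cells (log2 difference 4.38, 95% confidence interval 3.88 to 4.87 in the limma fit over brighter genes described below). This checks the labels and is no finding. THY1 was at 795.3, 1221, 878.5, 1048 and 966.0 in CD90+/CD133- cells and at 728.5, 1435, 1421, 1773 and 2171 in CD90+/CD133+ cells. It was higher in CD90+/CD133+ cells in 4 of 5 pairs, by 0.55 on the log2 scale (standard error 0.155, limma adjusted p = 0.0485), and that call was lost without pair 2 (0.0711), 3 (0.141), 4 (0.164) or 5 (0.0877). Its other probe sets gave smaller differences, 0.15 and 0.20. With the mean of probe sets THY1 was higher by 0.30 and was not called (limma adjusted p = 0.125 over the brighter genes).

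**Figure D1:**
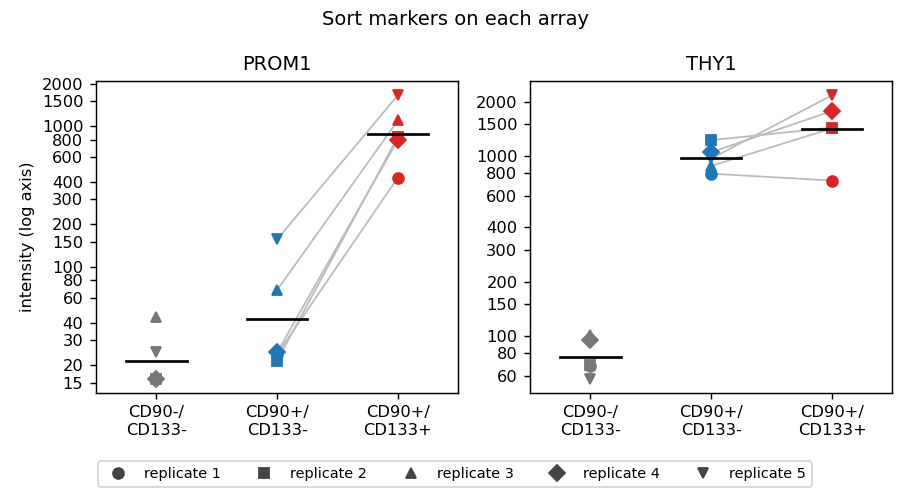
Intensity of PROM1 and THY1 on each array (log axis) in the 3 sorted fractions, with a symbol for each replicate number, grey lines joining the compared pairs and black bars for geometric means. PROM1 separated the compared fractions by 20.8-fold, while THY1 lay between 728.5 and 2171 in both of them.

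Apart from PROM1, the difference between the fractions was small and spread over many genes. In the paired limma fit over all 19775 genes, 8 genes passed an adjusted p of 0.05 (0.0405% of those tested), 4 higher and 4 lower in CD90+/CD133+ cells (0.0202% each way). PROM1 itself did not pass there (adjusted p = 0.0573). In that fit 3599 genes sat at the floor of 16 on all 10 arrays and had no spread, and the prior held 0.452 degrees of freedom beside the 4 residual ones. Without those genes the prior was 3.54 and 529 genes were called. Over the 12580 genes with a mean above 32 the prior was 6.56, and 1345 genes were called (10.7%), 683 higher (5.43%) and 662 lower (5.26%). At an unadjusted p of 0.05 the counts were 3899 over all genes and 4008 over the brighter ones. The fit over brighter genes is an alternative setting, and the genes taken from it below were chosen after their values were seen. Its calls were small: 125 of the 1345 reached 1.5-fold and 5 reached 2-fold, namely PROM1, CENPA, AURKB and IL7R upward and ATF3 downward. The median size of a called log2 difference was 0.393, and 18 calls had an adjusted p under 0.01. Every CD90+/CD133+ array lay above every CD90+/CD133- array in 311 of the brighter genes (2.47%) and below it in 262 (2.08%).

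The calls leaned on the pairing and on single pairs. Without the replicate number in the limma fit, 0 of the brighter genes were called, while 1063 were higher and 887 lower at an unadjusted p of 0.05. With pair 3 or pair 4 left out 2 genes were called, which were PROM1 and ZNF800 each time, and without pair 2 there were 305. Every other call among the brighter genes given below was thus lost without pair 3 and without pair 4. With any 1 pair left out, 1335 to 1344 of the 1345 called genes kept their direction. That cannot show steadiness, because the genes were called on these same pairs and 1283 of them moved alike in all 5.

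**Figure D2:**
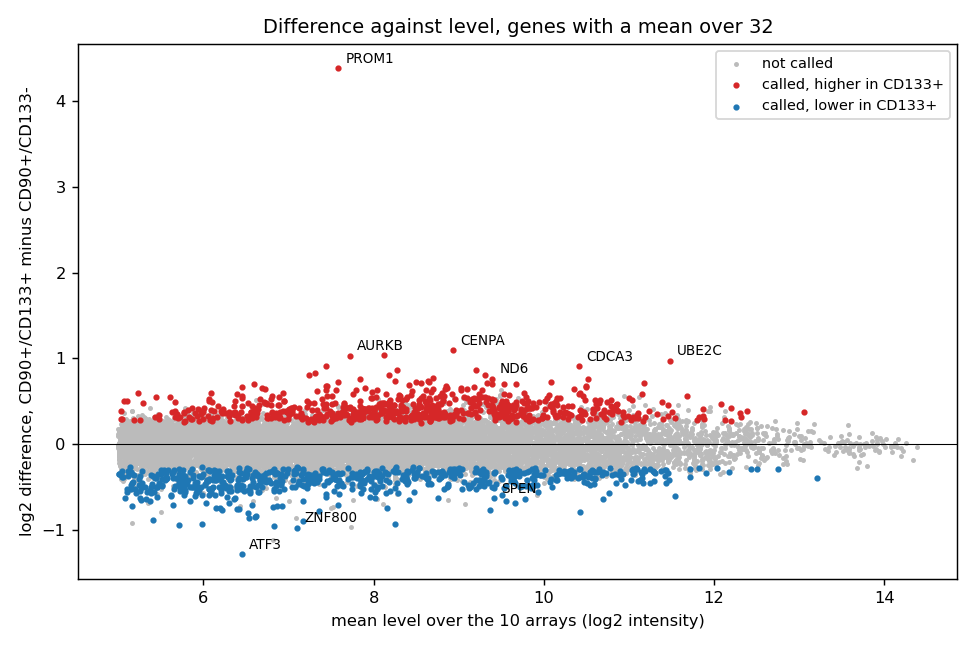
Log2 difference between CD90+/CD133+ and CD90+/CD133- cells against mean log2 intensity over the 10 arrays, for the 12580 genes with a mean above 32. Red and blue points are the 683 genes called higher and the 662 called lower; PROM1 stands alone at 4.38, and most called genes lie close to those not called.

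The 8 genes of the fit over all genes had narrow spreads rather than large differences. SPEN, a nuclear corepressor that binds RNA, was at 804.2, 784.0, 810.1, 859.3 and 998.2 in CD90+/CD133- cells and at 497.0, 518.8, 533.5, 547.3 and 667.3 in CD90+/CD133+ cells. It fell by 0.62 on the log2 scale with no overlap between the fractions, although its other probe sets gave -0.26, -0.18 and 0.01. AMIGO1, an adhesion protein of neurons, fell by 0.51, RNF138, a ubiquitin ligase, fell by 0.45, and SEC24B, a cargo adaptor of COPII vesicles, fell by 0.28. Upward, SSC4D rose by 0.32, CEACAM19 by 0.29, NOP10, a protein of H/ACA ribonucleoproteins, by 0.22 and TEFM, an elongation factor of mitochondrial transcription, by 0.19. Of these, NOP10 (adjusted p = 0.0678) and TEFM (0.103) were not called over the brighter genes, and a second TEFM probe set gave -0.17. SELENOS upward (log2 difference 0.19, adjusted p = 0.0501) and BPTF downward (-0.31, 0.0527) came next in the fit over all genes. With 1 pair left out, AMIGO1 was called without pair 4 and none of the other 7 genes was called in any of these fits.

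Genes of mitosis were among the largest rises after PROM1. CENPA, the histone H3 variant of centromeres, was at 329.9, 392.8, 360.6, 400.6 and 220.2 in CD90+/CD133- cells and at 541.7, 700.9, 783.9, 779.1 and 784.6 in CD90+/CD133+ cells. The fractions did not overlap, and CENPA rose by 1.09 on the log2 scale (standard error 0.14, limma adjusted p = 0.00962). AURKB, the kinase of the chromosomal passenger complex, was at 218.4, 163.8, 149.6, 155.3 and 85.0 against 292.4, 283.3, 328.4, 317.4 and 291.0, a rise of 1.03 (0.154, 0.0135). UBE2C, the ubiquitin-conjugating enzyme of the anaphase-promoting complex, was at 2648, 1993, 2399, 2054 and 1368 against 4102, 3433, 4418, 3567 and 4652, a rise of 0.97 (0.143, 0.0135). In each of them the lowest array was CD90+/CD133- replicate 5, and all 5 pairs rose. CDCA3, a cell division protein, rose by 0.91, PIMREG by 0.91, HJURP, the chaperone that loads CENPA, by 0.86, SPC25, a subunit of the NDC80 kinetochore complex, by 0.81 and FAM83D, a spindle protein, by 0.76. Genes of other roles lay between them: IL7R, the interleukin-7 receptor, rose by 1.05 but was higher in only 4 of 5 pairs, and CCK, the precursor of cholecystokinin, rose by 0.87, CDKN2D, an inhibitor of CDK4 and CDK6, by 0.83, CD70, a ligand of the TNF family, by 0.81 and MRPL38, a mitochondrial ribosomal protein, by 0.80.

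The sequence before the start of mitotic genes is known for CCAAT boxes and for cell cycle homology elements of the form TTTGAA. The 250 bases upstream of the start are shown for CCNA2, CDK1, AURKB and CENPA because these genes rose together (RefSeq, GRCh38.p14, each on its own strand). UBE2C and AURKA, which also rose, had no promoter entry, and other mitotic genes that rose are not shown. They lie at chr4:121823884-121824133 on the minus strand (CCNA2), chr10:60778081-60778330 on the plus strand (CDK1), chr17:8210250-8210499 on the minus strand (AURKB) and chr2:26785806-26786055 on the plus strand (CENPA). Capitals mark CCAAT or TTTGAA read on either strand, as ATTGG or TTCAAA where the match is on the other one.
CCNA2: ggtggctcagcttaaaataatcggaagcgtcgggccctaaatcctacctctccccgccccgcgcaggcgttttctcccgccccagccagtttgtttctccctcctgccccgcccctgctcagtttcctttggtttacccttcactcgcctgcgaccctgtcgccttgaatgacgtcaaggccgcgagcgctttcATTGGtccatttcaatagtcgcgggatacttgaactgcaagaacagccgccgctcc
CDK1: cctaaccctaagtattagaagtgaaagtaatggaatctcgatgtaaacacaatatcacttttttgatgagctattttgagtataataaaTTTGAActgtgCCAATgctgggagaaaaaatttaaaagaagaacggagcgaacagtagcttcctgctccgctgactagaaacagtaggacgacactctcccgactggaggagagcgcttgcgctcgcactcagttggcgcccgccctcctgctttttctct
AURKB: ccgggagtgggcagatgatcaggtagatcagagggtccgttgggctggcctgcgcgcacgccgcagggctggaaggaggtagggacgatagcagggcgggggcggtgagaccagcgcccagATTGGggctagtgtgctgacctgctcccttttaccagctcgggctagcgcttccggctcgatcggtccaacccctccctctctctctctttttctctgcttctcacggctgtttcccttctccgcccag
CENPA: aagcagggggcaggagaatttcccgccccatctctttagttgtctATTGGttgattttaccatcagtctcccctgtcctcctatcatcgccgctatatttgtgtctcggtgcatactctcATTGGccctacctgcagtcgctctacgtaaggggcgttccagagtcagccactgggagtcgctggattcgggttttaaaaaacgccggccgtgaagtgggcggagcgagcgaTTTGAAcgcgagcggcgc
A CCAAT match stood in all 4 windows and a TTTGAA match in those of CDK1 and CENPA, while 32% of 35116 promoters held the first, 13.3% the second and 4.69% both, and overlapping matches counted. A match is no evidence of binding, and 4 chosen genes cannot measure an enrichment. For CDK1 and AURKB, which have 2 listed starts each, the one farther upstream was used.

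Of 34 cell cycle genes with a mean above 32, 5 rose (14.7%), 1 fell (2.94%) and 28 did not pass. Over all 12580 brighter genes 5.43% were called higher and 5.26% lower. The median log2 difference was 0.21, against 0.00783 over all 12580 genes, and 13 of the 34 were higher in all 5 pairs, as were 14.9% of all 12580 (13.7% were lower in all 5). The 5 were AURKB, UBE2C, CDK1 (0.72), AURKA (0.51) and CCNA2 (0.51). CDK1, the mitotic kinase, was at 2005, 1801, 1982, 2097 and 1281 against 2722, 3313, 2438, 3097 and 3384, with no overlap between the fractions, and its other probe sets gave 1.17, 1.02 and 0.83. CDK6, a kinase of the G1 phase, fell by 0.40. MKI67 (0.35, adjusted p = 0.176), PLK1 (0.41, 0.0595) and TOP2A (0.14, 0.559) did not pass, nor did CCNE1 of the G1 to S transition (0.01, 0.927) or CCND1 (-0.13, 0.309). The median over the list was 0.03, 0.08, 0.25, 0.06 and 0.63 in pairs 1 to 5, so that most of its size came from pair 5. Without pair 5, CENPA was higher by 0.91, AURKB by 0.84, UBE2C by 0.77 and CDK1 by 0.55, and all 4 stayed called. Others shrank more without pair 5: PIMREG went from 0.91 to 0.60, SPC25 from 0.81 to 0.53 and AURKA from 0.51 to 0.33.

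**Figure D3:**
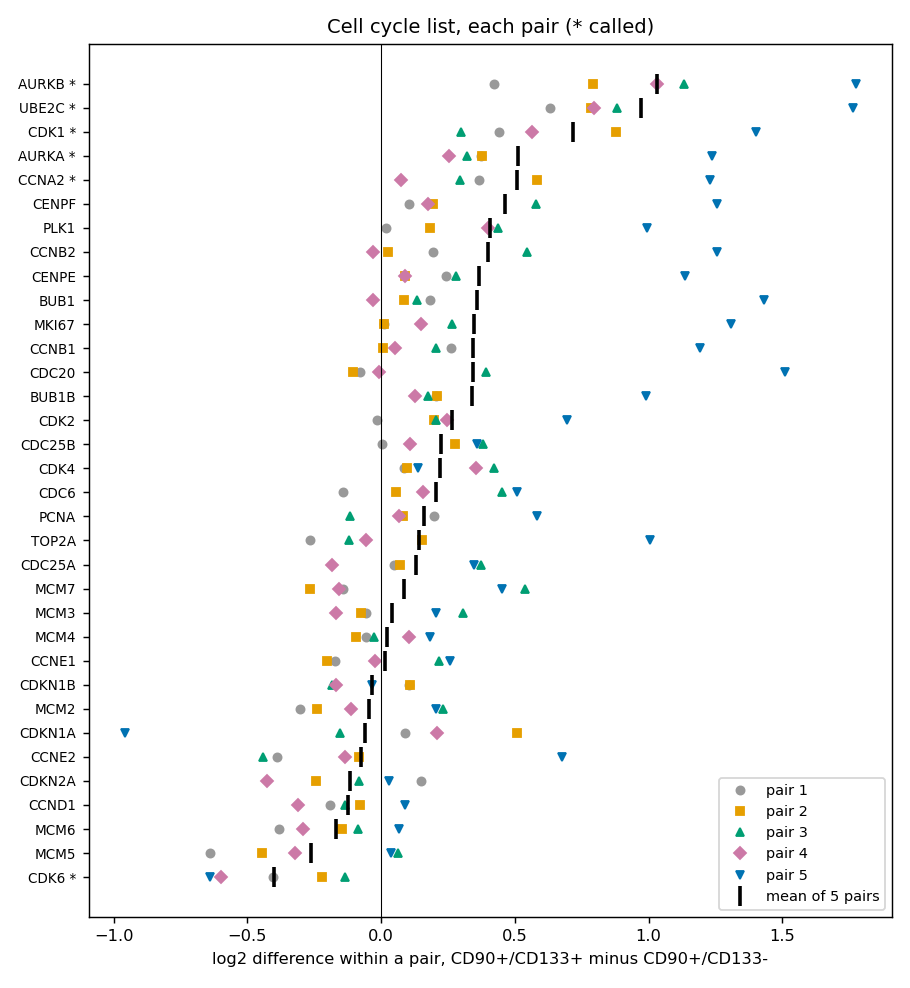
Log2 difference within each pair for the 34 cell cycle genes with a mean above 32, 1 symbol per pair and a black bar for the mean of 5 pairs, with an asterisk on the 6 called genes. Pair 5 lies to the right of the other pairs for most mitotic genes, and its median over the list was 0.63.

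CD90+/CD133- replicate 5, which was low for mitotic genes, was high for genes of the amino acid and unfolded protein responses. ERN1, the IRE1 sensor of the endoplasmic reticulum, was at 58.0, 50.2, 64.2, 46.4 and 232.5 in CD90+/CD133- cells and at 43.9, 30.2, 38.9, 36.4 and 41.0 in CD90+/CD133+ cells. It fell by 0.94 (standard error 0.255, limma adjusted p = 0.0428), by 0.55 without pair 5, and it was the only called gene of the 23 in this list with a mean above 32. The list median was -0.28, and it was -0.05, -0.05, -0.13, -0.10 and -0.82 in pairs 1 to 5. TRIB3 was at 2500 on that array against 367.7 to 447.9 on the other CD90+/CD133- arrays, and ASNS, asparagine synthetase, was at 2326 against 358.8 to 644.1. Neither passed (adjusted p = 0.174 and 0.109). The part that this array plays in the mitotic differences was not tested beyond leaving out its pair.

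Among the largest falls, ZNF800, a zinc finger protein, kept its call with any pair left out (adjusted p between 0.00208 and 0.0362). It was at 229.1, 175.8, 190.8, 185.3 and 184.4 in CD90+/CD133- cells and at 130.9, 100.5, 86.7, 98.2 and 81.8 in CD90+/CD133+ cells. The fractions did not overlap, and ZNF800 fell by 0.97 on the log2 scale (standard error 0.0854, limma adjusted p = 0.0019). Its other 3 probe sets had a mean under 32 and gave -0.07, 0.07 and -0.26. The geometric mean in CD90-/CD133- cells was 84.8. FRMD4B fell by 0.80 and PTPRO, a receptor tyrosine phosphatase, by 0.79, both with no overlap. IGFBP5, which binds insulin-like growth factors, fell by 0.95 while it ran from 24.2 to 862.8 within CD90+/CD133- cells. SOD2, the mitochondrial superoxide dismutase, fell by 0.89, THBD, thrombomodulin, by 0.83, BAMBI, a decoy receptor of TGF-beta, by 0.75 and CYP1B1, a monooxygenase of estrogens and xenobiotics, by 0.75.

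ATF3, a stress-induced transcription factor, had the largest called fall (-1.28 on the log2 scale, limma adjusted p = 0.033), with a wide spread. It was at 410.8, 48.0, 62.7, 75.9 and 506.4 in CD90+/CD133- cells and at 434.1, 23.2, 31.1, 28.5 and 62.9 in CD90+/CD133+ cells. It was lower in 4 of 5 pairs, the fractions overlapped, and without pair 5 the difference was -0.85. It was the only called gene of 23 immediate early genes with a mean above 32, while FOS (0.12, adjusted p = 0.298), EGR1 (-0.09, 0.443) and JUN (0.04, 0.783) did not pass.

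Transcripts of the mitochondrial genome differed among themselves. ND6, a complex I subunit and the one protein gene on the light strand, was at 438.7, 639.0, 526.6, 512.8 and 488.5 in CD90+/CD133- cells and at 688.1, 1278, 911.9, 805.0 and 811.6 in CD90+/CD133+ cells. The fractions did not overlap, and ND6 rose by 0.76 (standard error 0.0806, limma adjusted p = 0.00715). ND2, a complex I subunit of the heavy strand, fell by 0.39 (adjusted p = 0.0194). The other 5 measured heavy-strand genes gave -0.25 (ND4), -0.20 (ATP6), -0.18 (COX1), -0.08 (COX2) and -0.02 (COX3) and did not pass. Among 24 nuclear genes of the respiratory chain 4 rose (16.7%, beside 5.43% of all brighter genes) and none fell (beside 5.26%). NDUFS3 and SDHC rose by 0.38, NDUFA2 by 0.33 and COX4I1 by 0.28. The median of the list was 0.09, and 9 of its genes were higher in all 5 pairs, as were 14.9% of all brighter genes.

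**Figure D4:**
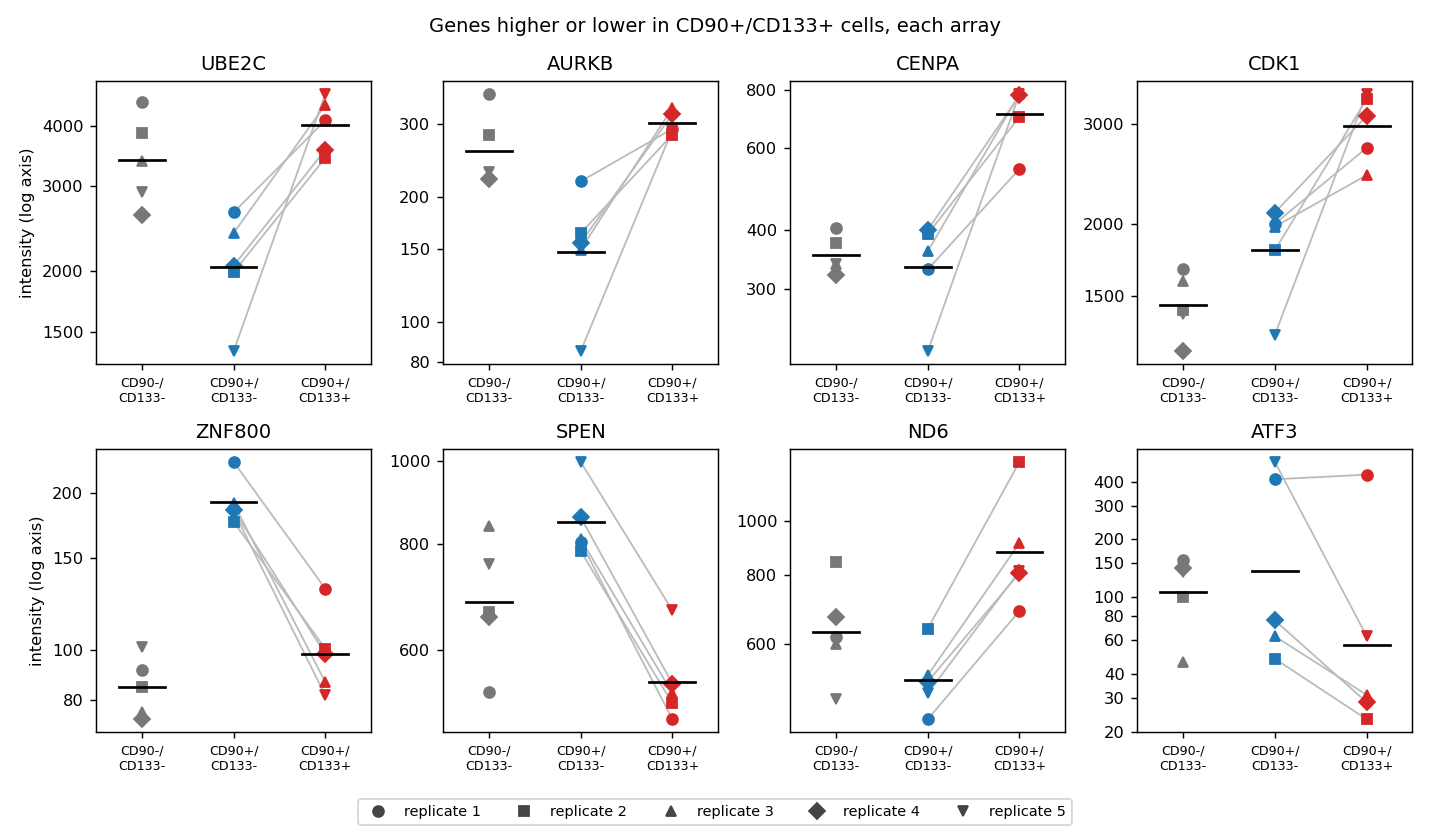
Intensity on each array (log axes, each panel with its own range) of 8 genes called higher or lower in CD90+/CD133+ cells, with grey lines joining the compared pairs and black bars for geometric means. UBE2C, AURKB, CENPA, CDK1 and ND6 were higher and ZNF800 and SPEN lower on all CD90+/CD133+ arrays than on all CD90+/CD133- arrays, and ATF3 overlapped.

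Stem-associated genes did not move as a group. Of 16 surface proteins with a mean above 32, 2 rose, THY1 and NT5E, the ectonucleotidase CD73, and 2 fell, ALCAM, the adhesion molecule CD166, and CXCR4, the chemokine receptor (median -0.05). That was 12.5% each way, beside 5.43% higher and 5.26% lower over all brighter genes. NT5E was at 363.7, 186.1, 360.5, 204.5 and 280.5 in CD90+/CD133- cells and at 528.3, 347.0, 409.9, 347.4 and 580.6 in CD90+/CD133+ cells, higher in all 5 pairs but with overlap, and it rose by 0.69 (standard error 0.116, limma adjusted p = 0.0157). ALCAM fell by 0.32 and CXCR4 by 0.50. CD44 (-0.11, adjusted p = 0.412), CD24 (-0.13, 0.259) and EPCAM (-0.06, 0.653) did not pass. Of 7 pluripotency factors with a mean above 32 only MYC was called, and it fell by 0.47 in all 5 pairs, from a geometric mean of 2338 to 1684. SOX2 was dim, between 16 and 25.1 on the 10 arrays, and was at the floor on 1 of them. It was higher in all 5 pairs by 0.25 and did not pass in the fit over all genes (adjusted p = 0.129). NANOG lay between 16 and 16.4. None of 13 aldehyde dehydrogenases or 6 ABC drug transporters with a mean above 32 was called by limma (1 and 1 were higher, and 2 and 0 lower, at an unadjusted p of 0.05), and ALDH1A1 and ABCG2 were at the floor of 16 throughout.

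Of the 7 prominins and reported CD133 partners with a mean above 32, HDAC6, a cytosolic deacetylase, rose by 0.26 beside PROM1, and FYN, a Src family kinase, fell by 0.42. Probe sets of HDAC6 gave between -0.08 and 0.26. PROM2, the other prominin, was at 516.2, 1392, 1334, 1859 and 868.2 against 538.1, 1612, 1524, 1835 and 1653 (log2 difference 0.27, limma adjusted p = 0.161). No gene beside PROM1 on chromosome 4 changed by as much as PROM1 itself (log2 difference 4.38). Of the 10 measured genes on each side, 12 had a mean above 32 and 0 were called by limma. At an unadjusted p of 0.05, 3 were higher and 1 lower. Over all 12580 brighter genes 10.7% were called and 4008 had an unadjusted p under 0.05, so 12 genes are too few to show a lower share. Differences ran from -0.41 (CPEB2, limma adjusted p = 0.0663) to 0.56 (FGFBP1, 0.0601), with NCAPG at 0.45 (0.0809). The median over all measured neighbours was 0.02.

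Calls among epithelial and mesenchymal genes were small in number, and the lists are short (16 and 11 genes with a mean above 32). The epithelial calls were all lower (18.8% of the list), and mesenchymal genes were lower in 18.2% and higher in 9.09%. Over all brighter genes 5.26% were lower and 5.43% higher. Of 16 epithelial genes, OCLN and TJP1, proteins of tight junctions, and GRHL2, an epithelial transcription factor, fell by 0.29, 0.33 and 0.35 and none rose. CDH1 (-0.27, adjusted p = 0.147) did not pass, nor did the claudins CLDN3 (0.48, 0.057), CLDN7 (0.23, 0.101) and CLDN4 (0.17, 0.168), which were higher in 4, 5 and 5 of 5 pairs. At an unadjusted p of 0.05, 2 epithelial genes were higher and 6 lower. Of 11 mesenchymal genes, SNAI2, a repressor of E-cadherin, fell by 0.88 and FN1, fibronectin, by 0.64, and COL1A1 rose by 0.38. The 5 probe sets of COL1A1 disagreed, with differences between -0.28 and 0.38. FN1 was at 1212, 1105, 3975, 1988 and 3606 in CD90+/CD133- cells and at 1053, 873.3, 1865, 1283 and 1894 in CD90+/CD133+ cells, lower in every pair. VIM (-0.15, 0.354) did not pass.

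Of the genes on which the study turns, EPAS1 was called lower, and GLUL and HIF1A were lower in every pair but were not called. GLUL, glutamine synthetase, was at 1559, 2557, 3044, 2559 and 3209 in CD90+/CD133- cells and at 1549, 2187, 2233, 2028 and 3109 in CD90+/CD133+ cells. It was lower in all 5 pairs by 0.21 on the log2 scale and did not pass (95% confidence interval -0.42 to -0.00137 in the fit over all genes, limma adjusted p = 0.252 there and 0.125 over the brighter genes). HIF1A was lower in all 5 pairs by 0.29 and did not pass (adjusted p = 0.0601 over the brighter genes). EPAS1, which encodes HIF-2α, was at 270.6, 269.3, 333.2, 337.3 and 273.8 against 235.1, 225.9, 224.4, 249.5 and 209.5. Its fractions did not overlap, and it fell by 0.37 (standard error 0.0809, adjusted p = 0.0259), with its other 2 probe sets at the floor. Of 21 glutamine and glutamate genes, SLC1A3, a glutamate transporter, rose by 0.63, and SLC38A2, a glutamine transporter, and GCLM, of glutathione synthesis, each fell by 0.34 (list median -0.21). That was 4.76% higher and 9.52% lower, beside 5.43% and 5.26% of all brighter genes. Of 29 glycolysis genes, PFKFB3 and PFKFB2, which set fructose-2,6-bisphosphate, fell by 0.39 and 0.33 and none rose. That was 6.9% lower, near the 5.26% of all brighter genes. The median of the glycolysis list was 0.05, and 4 of its genes were higher and 3 lower in all 5 pairs. Among 18 HIF targets outside glycolysis, NDRG1 fell by 0.64 and MXI1 by 0.50 (11.1% lower), and ANGPTL4 rose by 0.42 (5.56% higher).

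More antiviral and antigen-processing genes were higher than lower. Of 27 interferon-stimulated genes, 5 rose (18.5%, beside 5.43% of all brighter genes) and 1 fell (3.7%, beside 5.26%), with a median of 0.09. In all 5 pairs 9 were higher and 2 lower. IFI27 was at 214.2, 375.6, 634.6, 326.8 and 3657 in CD90+/CD133- cells and at 303.2, 471.4, 827.0, 425.1 and 5917 in CD90+/CD133+ cells. The spread between replicates exceeded the difference within pairs, all 5 of which rose, by 0.46 on average (standard error 0.081, limma adjusted p = 0.016). IFITM2 and IFITM3, which block virus entry, rose by 0.49 and 0.30, PSMB8 and PSMB9 of the immunoproteasome by 0.36 and 0.49, and IFIT2 fell by 0.72. ISG15 (0.18, adjusted p = 0.286) and MX1 (-0.24, 0.0867) did not pass. Of 17 cholesterol genes 3 rose (17.6%) and none fell: EBP by 0.73, PMVK by 0.41 and FDPS by 0.32 (list median 0.17). Both list medians were highest in pair 5. The median was -0.00023, 0.13, 0.13, 0.11 and 0.55 in pairs 1 to 5 for the cholesterol list, and 0.05, -0.01, 0.02, 0.08 and 0.38 for the interferon list.

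Calls among signalling pathways were small in number, and more of them were lower than higher. Called lower were 12.5% of TGF-beta and BMP genes, 10.5% of Notch, 10% of Hedgehog and 10% of mTOR genes. Of 9 ERBB genes 22.2% were lower, and of AMPK genes 0% were lower and 6.67% higher. TGF-beta and BMP genes were higher in 4.17%. Over all brighter genes the shares were 5.43% higher and 5.26% lower. SMAD4, the shared TGF-beta and BMP mediator, was at 259.4, 239.2, 227.1, 245.9 and 317.2 against 191.2, 190.8, 156.4, 197.2 and 164.3. Its fractions did not overlap, and it fell by 0.51 (standard error 0.1, limma adjusted p = 0.0186). In the same list of 24 genes SMAD7 fell by 0.47 and BMPR2 by 0.32, and FST, follistatin, rose by 0.45. Probe sets of FST gave between -0.115 and 0.81. The Notch ligand JAG1 and the target HES1 fell by 0.39 and 0.40 among 19 genes, APC and GSK3B of the Wnt pathway by 0.36 and 0.42 among 30, and GAS1, a Hedgehog co-receptor, by 0.50 among 10, with no call upward in these 3 lists. At an unadjusted p of 0.05 there were 0 higher and 5 lower Notch genes, 4 and 5 Wnt genes (2 of 30 called lower, 6.67%) and 3 and 1 Hedgehog genes (list median 0.07). ULK1, RRAGB and TSC1 fell by 0.50, 0.37 and 0.29 among 30 mTOR genes, and PRKAG1, an AMPK subunit, rose by 0.37 among 15, while 5 mTOR genes were higher and 8 lower, and 2 AMPK genes each way, at an unadjusted p of 0.05. In ERBB signalling, EGFR fell by 0.32 and BTC by 0.55. EGFR probe sets disagreed, with differences between -0.36 and 0.39.

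The remaining lists held at most 2 calls each. Called lower were 7.14% of heat shock, 10.5% of NRF2 and glutathione, 12.5% of NF-kB and cytokine, 11.1% of fatty acid and 4.55% of integrin and laminin genes. Over all brighter genes the share was 5.26%. Called higher were 25% of ciliated cell genes and 9.09% of collagens, beside 5.43% of all brighter genes. HSPH1 of 14 heat shock genes fell by 0.32, NFE2L2 (-0.48, and -0.32 without pair 5) and GCLM were the 2 that fell of 19 NRF2 and glutathione genes, RELA and TNFAIP3 the 2 that fell of 16 NF-kB and cytokine genes, THRSP fell among 9 fatty acid genes and LAMB2 among 22 integrins and laminins. CAPS rose among 4 ciliated cell genes and COL1A1 among 11 collagens, and none of 9 secretory genes was called (1 higher and 2 lower at an unadjusted p of 0.05). Some markers of other cell types had a mean above 32. Of 11 leukocyte genes 3 did and none exceeded a geometric mean of 112.1, and PTPRC was at the floor on all arrays. Of 12 endothelial genes 3 had a mean above 32 and none exceeded 65.4. Of 15 fibroblast genes 6 had a mean above 32 and none exceeded 187.4, with PDGFRA at the floor. COL1A1, whose probe sets disagreed, was the 1 called gene of these marker lists.

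Array quality moved with the fraction. The gap between the 3' and 5' GAPDH control probes was 0.0498 ± 0.0407 (SD, n = 5) in CD90+/CD133+ and 0.186 ± 0.0789 (SD, n = 5) in CD90+/CD133- cells on the log2 scale, smaller in 5 of 5 pairs (exact sign-flip permutation test, two-sided p = 0.0625, the smallest that 5 pairs allow; 0.125 after Benjamini-Hochberg over both controls). For ACTB it was 1.7 ± 0.662 and 2.46 ± 0.564, a mean difference of -0.763, and smaller in 4 of 5 pairs (exact p = 0.125). The part of this gap in the gene differences was not tested.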

How the data were processed

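Gene expression was measured on Affymetrix U133 Plus 2.0 arrays. Normalization between arrays was done by the authors with a cross-correlation method. The files hold deposited intensities on a linear scale, 1 per probe set, none under 5. The number of arrays limits the precision. The summarisation software is not given in the sources used here. Median intensity was 29.41 to 30.8 on CD90+/CD133+ and 29.95 to 32.33 on CD90+/CD133- arrays, and 32.87% to 34.54% of values lay under 16.

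Lower values were raised to a floor of 16 before the log2 step, which understates changes of dim genes. Of 54675 probe sets, 41097 name 1 gene, 1801 several and 11777 none. After controls, 41091 gave 19775 genes, each by its brightest probe set. Other probe sets of a named gene could be smaller or opposite. They ran from 0.05 to 0.69 for NT5E, 0.02 to 0.83 for CDKN2D and -0.94 to 0.21 for ERN1. The range was -0.76 to 0.11 for ZNF91 and -0.31 to 0.10 for BPTF. Symbols come from the platform annotation, and 41037 probe sets matched RefSeq. limma 3.58.1 (R 4.3.3) was fitted with replicate number as a block (two-sided, Benjamini-Hochberg, adjusted p under 0.05). Same-numbered arrays correlated at 0.80, 0.51, 0.30, 0.55 and 0.66 in their deviations from the group mean, against -0.12 on average between numbers. The labels also share codes within a number, and replicates 4 and 5 share 1 code. A design note mentions triplicates, but 5 numbers per fraction are labelled and were used.

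The comparison, the 35 gene lists and the rule for named genes were chosen with earlier results of these data known. The rule took PROM1, THY1, the 15 largest rises and falls among called genes that moved alike in 5 pairs, up to 4 called genes per list, the 5 of smallest p where under 5 were called, and GLUL, HIF1A and EPAS1. Applied to the fit over brighter genes, and for genes named as not passing, the choice followed the values. Alternatives were the block left out, random or by label code, all 3 fractions, quantile normalization, median centring, floors of 5 and 64, the mean of probe sets, brighter genes alone, an intensity trend, pairs left out and the methods' t-test and 1.5-fold rule.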

Additional observations from a re-analysis of the deposited data

Results flagged for a closer look

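Over 164 genes described or tabulated for this comparison, 319 groups of 5 arrays with any spread were checked, and in 40 of them 1 array stood apart from the other 4 by Dixon's ratio of its gap to the range of log2 values. The cut-off flags about 1 in 20 independent groups of normal values. These groups are not independent, and many of the genes were chosen after their values were seen. The count of 40 therefore does not measure an excess. CD90+/CD133- replicate 5 stood apart in 18. It was the lowest array for the cell cycle and mitotic genes PIMREG (ratio 0.861, intensity 60.5 beside a next value of 140.7), CDCA3 (0.825, 426.0 beside 1145), HJURP (0.724, 248.0 beside 461.9), SPC25 (0.831, 41.0 beside 133.8), AURKA (0.822, 755.7 beside 1382), CCNB1 (0.908, 1561 beside 3012) and CDC20 (0.811, 764.7 beside 2107). The same held for MKI67 (0.718), TOP2A (0.734), CENPF (0.72), BUB1 (0.738) and CCNE1 (0.714), and for SLC2A1 (0.723). It was the highest for TRIB3 (0.897, 2500 beside 447.9), ERN1 (0.798, 232.5 beside 64.2), ULK1 (0.716, 200.1 beside 113.1), VEGFA (0.74, 1281 beside 602.8) and MX1 (0.792, 448.9 beside 61.7).

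CD90+/CD133+ replicate 1 stood apart in 11. It was the highest array for SOD2 (0.737, 136.8 beside 103.4), GRHL2 (0.793, 597.5 beside 538.2), FST (0.811, 150.3 beside 79.1), PFKFB3 (0.864, 184.1 beside 135.1), TNFAIP3 (0.794, 1400.0 beside 538.2), CPEB2 (0.858), ZNF268 (0.718) and NANOG (1.0, where the other 4 arrays were at the floor), and the lowest for CYP1B1 (0.806, 30.04 beside 68.86), PROM2 (0.849, 538.1 beside 1524) and FGFBP1 (0.747).

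Of the remaining 11, 4 were CD90+/CD133+ replicate 5, high for AMIGO1 (0.76), ISG15 (0.895, 764.2 beside 194.2) and MX1 (0.834, 458.2 beside 47.8) and low for SLC2A1 (0.778). CD90+/CD133- replicate 1 was high for JAG1 (0.726) and IL7R (0.783, 480.2 beside 167.5) and low for RPL39L (0.795). CCK was high in CD90+/CD133- replicate 3 (0.724), EPCAM low in CD90+/CD133+ replicate 3 (0.796), VEGFA low in CD90+/CD133+ replicate 4 (0.837) and PSMB10 low in CD90+/CD133- replicate 4 (0.826).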

How the results depend on the processing

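Over all genes the count of 8 rose to 285 with a random replicate block, 909 with all 3 fractions in the fit, 319 with median centring (63.6% higher), 150 with a floor of 5, 108 with the mean of probe sets, 529 without genes at the floor on all arrays and 1345 with brighter genes alone. It was 1 with the label code as block, 3 with an intensity trend and 0 with quantile normalization, a floor of 64 or the methods' t-test after Benjamini-Hochberg, and 10 with no replicate block. The methods' t-test gave 2188 unadjusted, and 214 genes met the 1.5-fold rule. With 1 pair left out the count was 0 to 4. Among brighter genes the count of 1345 (50.8% higher) was 0 with no replicate block and 3 with the label code as block (ND6, PROM1 and ZNF800), and 2 to 1406 with 1 pair left out: 305 without pair 2, 2 without pair 3 and 2 without pair 4. It was 1427 to 1801 with an intensity trend, a random block, all 3 fractions, median centring, averaged probe sets or quantile normalization, and 60.9% were higher with quantile normalization and 67.7% with median centring. The arrays' medians were 0.0385 lower on the log2 scale in CD90+/CD133+ cells. The sign turned for 2 named genes, CXCR4 without pair 3 (0.144; range -0.61 to 0.144 with 1 pair left out), where another probe set became the brightest (-0.39 with the same probe set), and EGFR with the mean of probe sets (0.00378). Settings combined with brighter genes, and the one without genes at the floor, were chosen after seeing the data. The cause of these moves was not tested, apart from genes without spread in the fit over all genes.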

Other observations

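Families of gene symbols, grouped after their values were seen, moved in opposite directions in the fit over brighter genes. Of 373 genes whose symbols start with ZNF and a number and with a mean above 32, 86 fell (23.1%, against 5.26% of all genes) and 6 rose, among them the antisense RNA ZNF232-AS1 (0.54), with a median log2 difference of -0.17. The median was -0.10, -0.13, -0.17, -0.17 and -0.26 in pairs 1 to 5, so that every pair had the same sign, and 144 of the genes were lower in all 5 pairs. ZNF91 was at 575.4, 769.3, 934.5, 880.6 and 1267 in CD90+/CD133- cells and at 410.8, 543.0, 460.9, 510.3 and 637.4 in CD90+/CD133+ cells, a fall of 0.76 (standard error 0.0995, limma adjusted p = 0.00962), and ZNF268 fell by 0.63. Of 76 mitochondrial ribosomal protein genes, 13 rose (17.1%, against 5.43% of all genes) and none fell. Their median was 0.18, and 0.14, 0.10, 0.21, 0.21 and 0.26 in pairs 1 to 5. MRPL38 rose by 0.80, MRPS11 by 0.49, MRPL54 and MRPS34 by 0.45. Of 55 cytosolic ribosomal protein genes 1 rose, RPL39L by 0.60, and their median was -0.02. The medians of the ZNF symbols and the mitochondrial ribosomal families kept their sign under quantile normalization (-0.15 and 0.20) and median centring (-0.13 and 0.22).

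Centromere proteins (CENP symbols) gave 6 rises among 18 (33.3%), with a median of 0.39, and cell division cycle associated genes (CDCA symbols) gave 5 among 7 (71.4%). Over all brighter genes 5.43% rose. The CENP median was 0.19, 0.19, 0.29, 0.30 and 1.02 in pairs 1 to 5, and kinesins gave 4 rises among 32 (12.5%). Of 36 genes with proteasome-type symbols (PSMA to PSMD) 5 rose (13.9%), 3 of which were the immunoproteasome subunits PSMB8, PSMB9 and PSMB10, and PSMC3IP among them is no proteasome subunit. By the median, genes that rose were shorter and those that fell longer than genes not called, with overlap between them. The median genomic span (RefSeq, GRCh38.p14) was 13.1 kb for 683 rises (quartiles 5.28 and 26.8) and 46.8 kb for 660 falls (19.8 and 115). It was 28.4 kb for 11227 genes not called (11.2 and 68.1). The part of gene length, of the RNA quality gap or of pair 5 in these patterns was not tested. Of the chromosomes, the medians ran from -0.07 (chromosome 13) to 0.07 (chromosome 22).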
